A study of Arabidopsis thaliana with 4 samples.

Results

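Leaves of Arabidopsis thaliana Col-0 acclimated to a fluctuating low light regime (FLL) were compared with leaves acclimated to a square low light regime (SQL), with the daily mean light set to 230 μmol photons m-2 s-1 in each. The members are all differentially methylated regions (DMRs) that the authors called between these regimes, 8479 of the 20095 distinct combinations of bin and sequence context in the series' 4 comparisons. In FLL the light rose and fell through the day in a natural pattern, and in SQL it was switched on at 1 level and off again. Both groups were wild type with ample water, and each was 1 whole-genome bisulfite sequencing library of DNA pooled from 6 plants. Bisulfite treatment leaves methylated cytosines readable as cytosine, so that the methylation level of a region is the percentage of its read calls that remained cytosine. There was no replicate of either regime, so every test below compares 2 libraries and not 2 growth conditions.

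Plants methylate cytosines in 3 sequence contexts, CpG, CpHpG and CpHpH, in which H stands for A, C or T. CpG methylation is copied onto the new strand after replication by MET1 and lies both in the bodies of many expressed genes and in transposable elements (TEs). CpHpG methylation is kept up mainly by CMT3, which is guided by methylation of histone H3, and CpHpH methylation by CMT2 in long heterochromatic TEs and by RNA-directed DNA methylation, with DRM2, in short TEs and at TE edges. Methylation of TEs in all contexts is known for keeping them silent.

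The 3574 CpG DMRs were mostly lower in FLL, whereas the 1373 CpHpG and 3532 CpHpH DMRs were mostly higher in FLL. Gains, meaning a higher level in FLL than in SQL, made up 22.4% of the CpG DMRs, 82.8% of the CpHpG DMRs and 73.3% of the CpHpH DMRs. Where the same 150 bp bin was called in more than 1 context, however, the contexts nearly always moved together. The sequences below are the 3 bins that were called in all 3 contexts, the gene-linked CpG bins with the largest gain and the largest loss (at least 8 reads per cytosine in both libraries), the bin in MCCA, a bin of a TA11 element called in both CpHpG and CpHpH, and the pseudogene bin with the second-largest gene-linked CpHpH gain at that coverage. They are the plus strand of the TAIR10 sequence from 5′ to 3′, and capitals mark the cytosines of the named context, a G in capitals being a cytosine of the other strand.
Bin upstream of AT4G09810, chr4:6177851-6178000, 10 CpG cytosines in capitals: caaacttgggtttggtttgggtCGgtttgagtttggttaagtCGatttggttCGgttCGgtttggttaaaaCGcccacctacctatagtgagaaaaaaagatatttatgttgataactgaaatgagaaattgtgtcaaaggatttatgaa
Intergenic bin of chromosome 5, chr5:20076305-20076454, 6 CpG cytosines in capitals: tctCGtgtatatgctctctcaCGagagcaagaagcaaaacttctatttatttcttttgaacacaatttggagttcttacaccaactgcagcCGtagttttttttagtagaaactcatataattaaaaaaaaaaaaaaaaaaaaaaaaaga
Bin upstream of AT5G25210, chr5:8723555-8723704, 6 CpG cytosines in capitals: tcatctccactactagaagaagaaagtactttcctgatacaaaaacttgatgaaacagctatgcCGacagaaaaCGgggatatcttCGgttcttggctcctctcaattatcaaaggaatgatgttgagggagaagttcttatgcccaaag
AT3G58730, chr3:21718601-21718750, 4 CpG cytosines in capitals: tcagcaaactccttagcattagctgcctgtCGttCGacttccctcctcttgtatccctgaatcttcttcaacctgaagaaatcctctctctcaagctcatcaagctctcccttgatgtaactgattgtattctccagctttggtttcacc
AT1G20925, chr1:7291951-7292100, 4 CpG cytosines in capitals: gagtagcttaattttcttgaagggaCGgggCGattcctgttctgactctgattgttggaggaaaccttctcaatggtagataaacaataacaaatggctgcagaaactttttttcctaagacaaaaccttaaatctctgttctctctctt
MCCA, chr1:742351-742500, 4 CpG cytosines in capitals: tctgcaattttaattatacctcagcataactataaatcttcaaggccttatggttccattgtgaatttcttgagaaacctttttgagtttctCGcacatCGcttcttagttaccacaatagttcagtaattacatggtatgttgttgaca
TA11 element AT2TE29460, chr2:7233101-7233250, 9 CpHpG cytosines in capitals: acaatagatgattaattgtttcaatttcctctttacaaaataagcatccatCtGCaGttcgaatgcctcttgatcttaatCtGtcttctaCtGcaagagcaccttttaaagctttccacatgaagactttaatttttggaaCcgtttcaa
AT2G01973, chr2:455651-455800, 35 CpHpH cytosines in capitals: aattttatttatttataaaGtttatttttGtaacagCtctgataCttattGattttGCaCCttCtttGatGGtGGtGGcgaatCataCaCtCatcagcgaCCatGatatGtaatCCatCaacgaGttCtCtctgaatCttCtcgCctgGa
The number of capitals equals the number of cytosines that the authors list for each of these bins. In the CpG bins they stand as CG pairs, so the bins of AT3G58730, AT1G20925 and MCCA carry 4 CpG cytosines each, the smallest number that the calling allowed.

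The depth was similar in both libraries. In CpG the median region had 9.80 reads per cytosine in FLL and 9.65 in SQL, in CpHpG 8.38 in FLL and 8.33 in SQL, and in CpHpH 8.21 in FLL and 7.89 in SQL. The median number of read calls per region was 295 in FLL and 280.0 in SQL in CpHpH, where regions hold the most cytosines, and at most 82.0 in either library in the other contexts. By Fisher's exact test on the read calls (two-sided, Benjamini-Hochberg adjustment over all regions), 8445 of the 8479 regions, 99.6%, had an adjusted p under 0.01. It is no independent check, because the authors had called the regions on these reads, and calls on neighbouring cytosines of 1 read are not independent. All intervals given here are 95% Wilson or, for differences, Newcombe intervals and cover counting error only. The study's preprocessing statistics list a higher bisulfite conversion rate for 1 of the SQL sequencing runs than for the other SQL runs and the FLL runs, and its part in the differences was not tested.

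Levels differed by context and direction as follows. The 2774 CpG losses had a median level of 56.2% in FLL and 83.1% in SQL, and the 800 CpG gains 66.1% in FLL and 38.2% in SQL. The 1137 CpHpG gains had 56.2% in FLL and 29.7% in SQL, and the 236 CpHpG losses 24.7% in FLL and 53.3% in SQL. The 2589 CpHpH gains had 26.3% in FLL and 12.6% in SQL, and the 943 CpHpH losses 11.9% in FLL and 25.5% in SQL. Most CpG losses thus lay at sites that were heavily methylated in SQL. A level above 80% in SQL was found for 1560 of the CpG losses (56.2%), and a level above 80% in FLL for 293 of the CpG gains (36.6%). Since the calling demanded a difference of at least 20 percentage points in CpG and CpHpG and 10 in CpHpH, the medians of the differences are partly set by it, and 49.6% of the CpG, 48.1% of the CpHpG and 48.0% of the CpHpH regions lay within 25 points (12.5 in CpHpH).

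**Figure D1:**
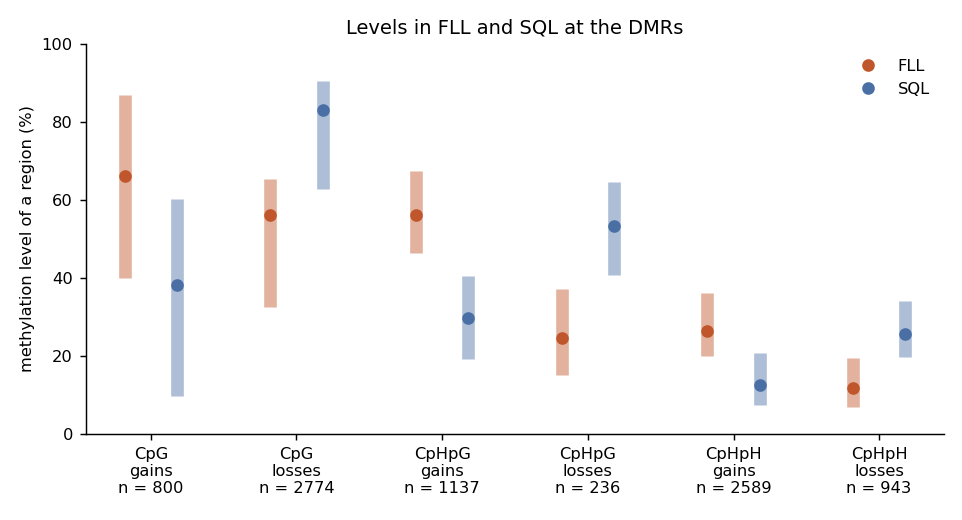
Methylation level of the DMRs (%, vertical axis) by context and direction, with FLL left of SQL in each pair. Points are medians over regions and bars run over the middle 50% of regions; CpG losses stood at a median of 56.2% in FLL and 83.1% in SQL, and CpHpG gains at 56.2% in FLL and 29.7% in SQL.

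Regions of a single bin of 150 bp made up 94.6% of the table. Wider ones arose where neighbouring bins had been joined, and they were found among 10.9% of the CpHpH gains, 3.5% of the CpG losses and 1.0% of the CpG gains. The widest region lay on chr1:28515001-28516200 in AT1TE93275, an element of the Helitron family HELITRON1. Helitrons are DNA transposons that move by rolling-circle replication. Over this stretch CpG methylation was 50.2% in FLL (444 of 885 read calls) and 89.7% in SQL (690 of 769), a difference of -39.6 points (95% interval -43.4 to -35.5), with an adjusted p of 5.6e-68 from Fisher's exact test. The same stretch was also called between FLL and the fluctuating library at high light (FLH), which had 89.3% (756 of 847). CpHpG methylation of the inner part, chr1:28515451-28516050, was 21.7% in FLL and 46.4% in SQL. The midpoint of the CpG region lies in an intron of AT1G75945.

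Other wide CpG losses lay in TEs as well as in a gene. The Copia element AT1TE84340 (ATCOPIA11, chr1:25723501-25724100) had 20.1% in FLL and 60.3% in SQL, and the Helitron AT3TE40920 (HELITRONY2, chr3:9830201-9830950) 11% in FLL and 39.0% in SQL. In the coding part of AT5G14050 (chr5:4533905-4534504) the level was 26.0% in FLL and 55.6% in SQL. All of these passed the read test, with adjusted p-values from Fisher's exact test of 9.6e-15, 2.6e-17 and 9.2e-12.

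All CpHpH regions of 600 bp or more were gains. Next to AT2G34060, a peroxidase gene, chr2:14386601-14387200 had 35.2% in FLL (454 of 1289 read calls) and 8.81% in SQL (129 of 1464), a difference of 26.4 points (23.4 to 29.4). This region was in no named TE, and its midpoint lay outside annotated genes. The HARBINGER element AT1TE74860 on chr1:22698451-22699500, upstream of AT1G61520, had 37.3% in FLL and 24.7% in SQL, and the SIMPLEGUY1 element AT4TE65510 near AT4G27890 had 34.9% in FLL and 21.0% in SQL.

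Bins called in more than 1 context were few, but they were the places where the contexts did not part. In 33 bins CpG and CpHpG were both called, and 32 of them (97.0%, 84.7 to 99.5) had the same direction, 25 as losses and 7 as gains. For CpG and CpHpH it was 44 of 49 bins (89.8%, 78.2 to 95.6), 32 losses and 12 gains. For CpHpG and CpHpH it was 117 of 118 (99.2%, 95.4 to 99.9), 95 gains and 22 losses. The CpG and CpHpG losses in 1 bin had a median CpG level of 52.2% in FLL and 82.5% in SQL and a median CpHpG level of 17.6% in FLL and 46.4% in SQL. The shared CpHpG and CpHpH gains had medians of 63.7% in FLL and 34.1% in SQL in CpHpG, and 23.9% in FLL and 10.4% in SQL in CpHpH. The contexts are read from the same DNA fragments, and these bins were selected by 2 calls on the same libraries, so no test was made.

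**Figure D2:**
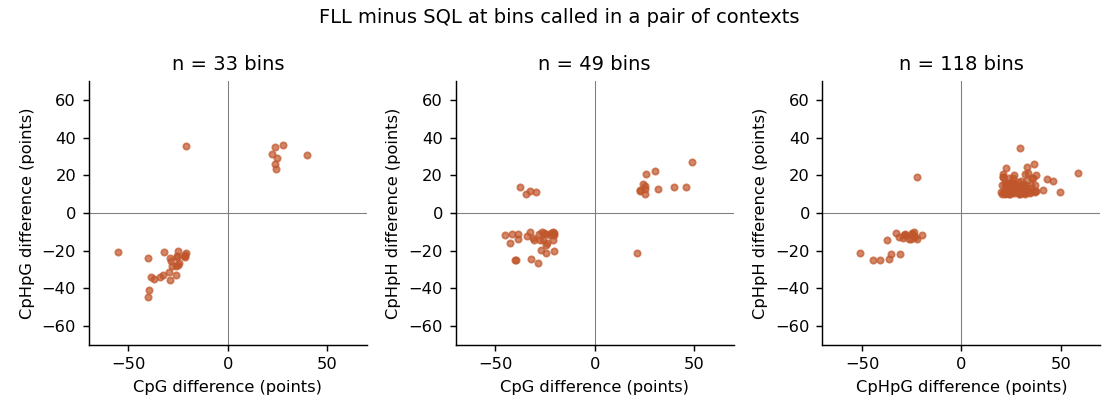
FLL minus SQL differences (percentage points) in 2 contexts of the same bin, for 33, 49 and 118 bins; each point is 1 bin. In the CpG and CpHpG panel 32 of 33 points lie in the quadrants of equal sign, in the CpG and CpHpH panel 44 of 49, and in the CpHpG and CpHpH panel 117 of 118.

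At different bins of 1 TE, CpG and CpHpG mostly had opposite directions, as did the CpG and CpHpG regions of TEs taken as a whole. Of all regions in TEs, 15.6% in CpG (257 of 1646), 84.0% in CpHpG (890 of 1059) and 72.9% in CpHpH (1978 of 2712) were gains, and the pair counts below are to be read against these shares. Of 378 pairs of a CpG and a CpHpG region in separate bins of 1 TE locus, 274 joined a CpG loss with a CpHpG gain and 96 (25.4%, 21.3 to 30) had the same direction. The 274 pairs came from 188 TE loci. Their CpG regions had a median of 64.8% in FLL and 90.2% in SQL, and their CpHpG regions 56.4% in FLL and 30.1% in SQL. Pairs of a locus share their regions and are not independent. For CpHpG and CpHpH in separate bins of 1 TE, by contrast, 334 of 449 pairs (74.4%, 70.2 to 78.2) had the same direction, 322 of them as gains. Nothing particular to pairs within 1 TE is read from these counts.

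The 3 bins called in all contexts were all outside named genes and TEs. On chr4:6177851-6178000, upstream of AT4G09810, CpG methylation was 37.1% in FLL (33 of 89 read calls) and 77.2% in SQL (44 of 57), CpHpG methylation 15% in FLL and 59.4% in SQL, and CpHpH methylation 10.4% in FLL and 35.3% in SQL. The intergenic bin chr5:20076305-20076454 was lower in FLL too. It had 23.9% in FLL and 63.6% in SQL in CpG, 32.3% in FLL and 73.1% in SQL in CpHpG, and 10.4% in FLL and 35.6% in SQL in CpHpH. The third bin, chr5:8723555-8723704 upstream of AT5G25210, was higher in FLL, with 94.3% in FLL (33 of 35) and 54.3% in SQL (25 of 46) in CpG, 62.9% in FLL and 31.9% in SQL in CpHpG, and 30.1% in FLL and 16.2% in SQL in CpHpH. The adjusted p-values of these 9 regions from Fisher's exact test ran up to 0.00389.

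TEs held 1646 of the CpG DMRs (46.1%, 44.4 to 47.7), 1059 of the CpHpG DMRs (77.1%, 74.8 to 79.3) and 2712 of the CpHpH DMRs (76.8%, 75.4 to 78.1). They belonged to 3860 TE loci of 287 families. When regions that also carried a gene name were left out, the shares were 23.3% in CpG, 29.8% in CpHpG and 58.6% in CpHpH, so they depend on how a TE region is defined. The share of all tested bins that lay in TEs is not known here, so no enrichment is read from these values. The same holds for the numbers of regions by TE group and family below. CpG gains were scarcest in TEs near the centromeres. The pericentromere is here the run of gene-poor 500 kb windows at each centromere, in which protein-coding genes number under 0.5 times the median window, and it makes up 15.5% of the nuclear genome. In pericentromeric TEs 13.0% of 1022 CpG DMRs were gains (11.1 to 15.2), with a median level of 64.6% in FLL and 87.7% in SQL. In TEs of the chromosome arms it was 19.9% of 624 (16.9 to 23.2), and outside TEs in the arms 29.5% of 1664 (27.4 to 31.7), where the median level was 43.0% in FLL and 56.0% in SQL. The depth at the pericentromeric TEs was 8.27 reads per cytosine in FLL and 8.38 in SQL, and outside TEs in the arms 10.7 in FLL and 10.5 in SQL.

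CpHpG gains showed the reverse order. They made up 86.6% of 655 regions in pericentromeric TEs (83.7 to 89.0) and 76.4% of 212 outside TEs in the arms (70.3 to 81.6). In CpHpH the share of gains was 72.4% of 615 in pericentromeric TEs and 73.1% of 2097 in TEs of the arms, and their intervals overlap (68.7 to 75.7 and 71.2 to 75).

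The long LTR retrotransposons of the Gypsy group, which fill much of the pericentromere, gave 1329 regions, and 85.0% of these were pericentromeric. Their CpG DMRs were gains in 12.6% of 594 cases (10.2 to 15.5), beside 22.4% over all CpG DMRs, and had a median of 64.9% in FLL and 87.8% in SQL. Their CpHpG DMRs were gains in 86.6% of 426 cases and their CpHpH DMRs in 83.5% of 309 (78.9 to 87.2), with a CpHpH median of 18.1% in FLL and 7.95% in SQL. The CACTA group, cut-and-paste DNA transposons, showed similar shares with 181 regions, namely 10.8% of 74 in CpG, 87.1% of 62 in CpHpG and 91.1% of 45 in CpHpH.

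Helitrons gave the most regions, 1601, and most of them were CpHpH. Gains were 71.6% of 1082 CpHpH regions (68.9 to 74.2), with a median of 24.5% in FLL and 17.0% in SQL, and 75% of 144 CpHpG regions (67.3 to 81.4), below the 82.8% over all CpHpG DMRs. Among the 749 regions of Mutator-like elements the shares of gains were 16.1% in CpG, 84.5% in CpHpG and 67.7% in CpHpH (62.9 to 72.2). Copia elements, with 410 regions, had 13.9%, 86.2% and 79.0% in the same order. LINEs, retrotransposons without LTRs, had 16.3%, 84.1% and 83.3% of 98, 82 and 144 regions. The hAT group had the highest CpG share, 37.1% of only 35 regions (23.2 to 53.7), and the remaining DNA transposons 17.4% of 23. A further 440 regions in TEs had family names that could not be placed in a group.

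**Figure D3:**
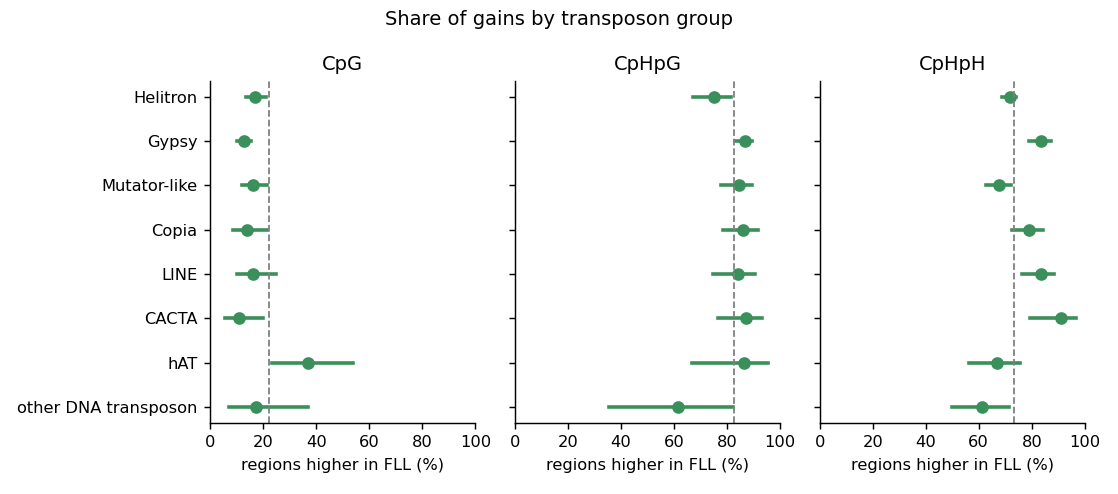
Share of regions that were higher in FLL (%, horizontal axis) for each TE group with at least 100 regions, in the 3 contexts; bars are 95% Wilson intervals and the dashed line is the share over all DMRs of the context (22.4%, 82.8% and 73.3%). Gypsy elements lie left of the line in CpG, at 12.6%, and right of it in CpHpH, at 83.5%.

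Among the single families named here, the LINE family TA11 stood at 1 end in CpHpH, together with the Gypsy family ATGP3, whose 8 CpHpH regions were all gains. TA11 is included because the study had named it beside a gain of methylation in this comparison. All 39 CpHpH regions of TA11, in 21 TE loci, were gains (95% interval 91.0 to 100%), beside 73.3% over all CpHpH DMRs. The TA11 levels ran from 13.9% to 67.9% in FLL around a median of 25.3%, and from 1.46% to 56.0% in SQL around a median of 13.0%. The differences lay between 10.1 and 16.6 points, so none was far above the minimum that the calling set. In CpHpG 17 of 19 TA11 regions were gains, and in CpG 2 of 13. The element AT2TE29460 on chromosome 2 contributed 8 regions, all gains. In its bin chr2:7233101-7233250, printed above, CpHpG methylation was 72.7% in FLL and 43.4% in SQL, and CpHpH methylation 25.3% in FLL and 13.0% in SQL. The neighbouring AT2G16676, annotated as protein-coding but described as a TA11-like retrotransposon, had 4 regions, and these were gains as well.

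The Gypsy families ATLANTYS1, ATGP1 and ATGP3 resembled their group in CpG and CpHpG. ATLANTYS1 had 123 regions, with gains in 7.32% of 41 CpG regions, 85.4% of 48 CpHpG regions and 85.3% of 34 CpHpH regions. Its CpG median was 69.4% in FLL and 91.7% in SQL. ATGP1 had 122 regions, with gains in 9.52% of 42, 93.1% of 29 and 70.6% of 51 in the same order. Of the 30 ATGP3 regions, all 9 in CpG were losses, 11 of 13 in CpHpG were gains and all 8 in CpHpH were gains. The ATGP3 CpG levels did not overlap between the libraries, at 48.1% to 71.0% in FLL and 77.4% to 100% in SQL. The table that called these regions had selected them for such a difference. The Mutator-like family VANDAL20 had 32 regions, with 1 gain among 14 in CpG, 4 among 8 in CpHpG and 6 among 10 in CpHpH. No region carried the family name ATRE2. The study reports a loss of methylation at ATRE2 between SQL and FLL, and this disagreement was not resolved.

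The families with the most regions were ATREP3 with 275, HELITRONY3 and ATHILA2 with 202 each, ATREP10D with 135, ATHILA6A with 124, ATLANTYS1 with 123, ATGP1 with 122, ATREP11 with 102, ATHILA3 with 81 and ATREP1 with 80. Of these, the ATREP and HELITRONY families are Helitrons and the ATHILA families belong to Gypsy. ATREP3 was mostly called in CpHpH, with 145 gains among 210 regions (69.0%), and HELITRONY3 likewise with 109 among 151 (72.2%). ATHILA6A had 4 gains among 45 CpG regions (8.89%), 41 among 46 in CpHpG (89.1%) and 30 among 33 in CpHpH (90.9%), and ATHILA2 15.7%, 86.4% and 85.4%. In ATREP11 gains and losses were closer, 42 gains among 67 CpHpH regions (62.7%, 50.7 to 73.3).

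Single TEs held regions of different directions. The ATLANTYS1 element AT1TE54805 had the most regions of any TE, 10. Its CpG region was 74.3% in FLL and 94.3% in SQL, its CpHpG region 76.7% in FLL and 30.6% in SQL, and its CpHpH regions went both ways, for example 21.4% in FLL and 10.2% in SQL at chr1:16627651-16627800 but 12.1% in FLL and 23.3% in SQL at chr1:16627951-16628100. The VANDAL2 element AT1TE31190 had 9 regions, of which 1 in CpHpG had 33.3% in FLL and 73.3% in SQL. That CpHpG bin was also called between SQL and the square library at high light (SQH), which had 34.9% (15 of 43). CpHpH at the element's end next to AT1G27820 stood at 44.6% in FLL and 18.8% in SQL. The VANDAL2 element AT4TE23825 and the CACTA element AT1TE36570 (ATENSPM3) had 8 regions each. Among those of AT4TE23825 were 2 CpHpH regions near AT4G08895 with adjusted p-values of 0.0107 and 0.0104 from Fisher's exact test, which did not pass the threshold.

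Outside TEs, CpG DMRs lay largely within protein-coding genes. The gene column of the table named 1538 of 27444 nuclear protein-coding genes (5.60%). Of the CpG DMRs outside TEs, 861 had their midpoint in a coding exon, 389 in an intron and 169 within 1 kb upstream of a gene. Gains were 32.1% of those in coding exons (29.0 to 35.2), 35.5% of those in introns (30.9 to 40.4) and 20.1% of those upstream (14.8 to 26.8). The median level in coding exons was 44.9% in FLL and 55.9% in SQL. CpHpH DMRs outside TEs had their midpoints mostly between genes. Of these, 297 lay within 1 kb upstream of a protein-coding gene (76.1% gains) and 334 elsewhere between genes, downstream flanks included (71.3%). A further 45 were in coding exons (82.2%).

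Within gene bodies the CpG DMRs were fewest at the 5′ end. When each gene was divided into 5 equal parts along its direction of transcription, the part nearest the start held 68 of 1306 CpG regions outside TEs (5.21%), the middle part 345 (26.4%), the next 412 (31.5%) and the last 245 (18.8%). Bins that were tested but not called are not listed. No share of all tested bins could thus be set beside these counts, and no depletion is read from them. Gains were 14.7% of the 68 regions in the part nearest the start (8.19 to 25) and 35.0% of the 412 in the fourth part (30.5 to 39.7). The 1306 regions lay in 1230 genes. Of the 67 genes with more than 1 such region, 32 had all their regions in 1 direction, so that the others held both gains and losses. This stands beside 423 gains and 883 losses over all 1306 regions, and nothing particular to genes with more than 1 region is read from it.

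The largest differences are given next for regions that the table assigns to a gene and that had at least 8 reads per cytosine in both libraries. The largest CpG gain was in AT3G58730, which encodes subunit D of the vacuolar proton pump that acidifies the vacuole. At chr3:21718601-21718750, in its coding exon, the level was 90.0% in FLL (54 of 60 read calls) and 22.2% in SQL (10 of 45), a difference of 67.8 points (50.4 to 78.8) with an adjusted p of 3.7e-11 from Fisher's exact test. An intron of AT1G20760, a gene for a calcium-binding EF hand protein, had 56.8% in FLL (25 of 44) and 1.69% in SQL (1 of 59). An intron of DUO3 (AT1G64570), a homeodomain-like gene known for its role in the male germline, had 65.8% in FLL (73 of 111) and 11.6% in SQL (25 of 215) over chr1:23981101-23981400.

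The largest CpG loss was in AT1G20925, a gene of the auxin efflux carrier family, where chr1:7291951-7292100 had 8.33% in FLL (4 of 48) and 74.4% in SQL (29 of 39), a difference of -66.0 points (-78.2 to -46.9). UMAMIT31 (AT4G01440), of a family of membrane transporters, had 13.5% in FLL (7 of 52) and 63.6% in SQL (28 of 44) in an untranslated exon. AT1G02080, annotated as a transcription regulator, had 7.5% in FLL (3 of 40) and 57.4% in SQL (27 of 47) in a coding exon. The bins of UMAMIT31 and AT1G02080 were also called between FLL and FLH, which had 42.2% and 46.2%. In all 6 of these CpG regions 1 of the libraries FLL and SQL was at 22.2% or less and the other at 56.8% or more, in both directions.

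In CpHpG the largest gain was in LURE1.1 (AT5G43285), a gene for a pollen tube attractant, where an ATREP10D insertion had 53.8% in FLL (28 of 52) and 12.5% in SQL (4 of 32). That bin was also called between SQL and SQH, which had 66.7% (22 of 33), so SQL stood apart from the other square library too. The next largest CpHpG gains were in pseudogenes within the Mutator-like elements VANDAL4 and VANDAL6, AT1G42420 with 68.6% in FLL and 30.2% in SQL and AT5G33220 with 72.2% in FLL and 35.6% in SQL. The largest CpHpG losses were in TE-derived pseudogenes too, AT3G47875 (ATLINE1_4) with 21.2% in FLL and 68.8% in SQL, AT5G34833 (ATLANTYS1) with 27.9% in FLL and 65.6% in SQL, and AT1G31100 (ATLINEIII) with 30.2% in FLL and 65.0% in SQL. In CpHpH the gain next to AT2G34060 was followed by AT2G01973, a pseudogene of an OTU-like cysteine protease, with 38.1% in FLL and 12.5% in SQL, and by a HELITRONY3 insertion in an intron of AT1G63870, a TIR-NBS-LRR disease resistance gene, with 32.8% in FLL and 9.68% in SQL. The largest CpHpH losses were in an ATHILA4D LTR assigned to AT3G28260 (7.59% in FLL and 24.1% in SQL), in AT4G02320, of the invertase and pectin methylesterase inhibitor family (14.7% in FLL and 29.4% in SQL), and in AT4G08450, another disease resistance gene (8.0% in FLL and 22.4% in SQL). Disease resistance proteins of this class recognise pathogen effectors.

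Of the genes that the study names beside methylation, 6 of 8 had a region here, beside 5.60% of all protein-coding genes. AT4G26850 and AT2G10940 had none. The study drew these genes from DMRs of its own comparisons, this one among them. The count was thus largely fixed in advance and is no result about them. MCCA (AT1G03090), the biotin-carrying subunit of the methylcrotonyl-CoA carboxylase that degrades leucine, was fully methylated in FLL at 4 CpG cytosines of an intron on chr1:742351-742500. There the level was 100% in FLL (32 of 32) and 62.5% in SQL (25 of 40), a difference of 37.5 points (20.4 to 53.0) with an adjusted p of 0.000164 from Fisher's exact test. The study reports this intron DMR at the same place at high light. The comparison of FLH with SQH did not list the identical bin, however. Overlapping regions of other width were not looked for, and the disagreement was not resolved. MCCA was the only gene of the leucine catabolism list with a region, 1 of 6, beside 5.60% of all protein-coding genes. Because the study had named MCCA for a DMR in this comparison, this count too was largely fixed in advance and is no result about the list. The list's median gene length is 3218 bp, against 2078 bp over all protein-coding genes. AT1G27880, a DEAD/DEAH box RNA helicase, had 58.3% in FLL and 82.1% in SQL in an intron. RKF2 (AT1G19090), a receptor-like kinase, had a CpHpH gain in a coding exon with 27.6% in FLL and 16.1% in SQL. ESP (AT1G54040), the epithiospecifier protein that steers glucosinolate breakdown, had a CpHpH loss in an ATREP3 insertion with 16.1% in FLL and 27.3% in SQL. The RKF2 bin was also called between FLL and FLH, which had 17.2% (43 of 250). The ESP bin was also called between SQL and SQH, which had 13.9% (35 of 252).

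Genes of the methylation machinery carried CpG DMRs of their own, nearly all losses in coding exons. Of 42 genes listed for DNA methylation and demethylation, 7 had a region (16.7%, beside 5.60% of all protein-coding genes). The listed genes are longer, with a median of 4964 bp against 2078 bp over all protein-coding genes, and named genes have a median of 3166 bp, so the shares are not of like genes. Of their 11 regions 10 were losses, beside 883 losses among the 1306 CpG regions of gene bodies outside TEs. CMT3 (AT1G69770), the CpHpG methyltransferase, had 2, with 19.0% in FLL (8 of 42) and 58.6% in SQL (34 of 58) at chr1:26249701-26249850 and 46.7% in FLL and 71.0% in SQL at chr1:26250301-26250450. The first of these bins was also called between FLL and the fluctuating library at high light (FLH), which had 55.0%. MET1 (AT5G49160), the CpG maintenance methyltransferase, had 33.3% in FLL (21 of 63) and 59.7% in SQL (40 of 67) at chr5:19936955-19937104. AGO4 (AT2G27040), the Argonaute protein that carries small RNAs in RNA-directed DNA methylation, had 1.25% in FLL (1 of 80) and 26.8% in SQL (22 of 82).

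The remaining regions of that list were in genes of the same RNA-directed pathway. NRPD2 (AT3G23780), a subunit shared by RNA polymerases IV and V, had 68.8% in FLL and 89.4% in SQL. DMS3 (AT3G49250), which helps RNA polymerase V transcribe, had 4.41% in FLL and 25.5% in SQL, and HEN1 (AT4G20910), which methylates small RNAs, 55.4% in FLL and 78.2% in SQL. CLSY1 (AT3G42670, CHR38 in the annotation), a chromatin remodeller of the polymerase IV complex, had 4 regions in coding exons. In 3 of them the level was lower in FLL (17.8%, 66.7% and 26.7%) than in SQL (41.6%, 87.2% and 51.3%), and in the other it was 53.9% in FLL and 30.9% in SQL. The 3 lower bins were also called between FLL and FLH, and FLH had 43.9%, 92.4% and 52.0%. The adjusted p-values of the list's 11 regions from Fisher's exact test ran up to 0.00447. Expression of these genes was not analysed here.

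Of 24 circadian clock genes 3 had a region (12.5%, beside 5.60% of all protein-coding genes), and the median length of the list is 3299 bp, against 2078 bp. All 3 regions were CpG losses, as were 883 of the 1306 CpG regions of gene bodies outside TEs. CCA1 (AT2G46830), the morning repressor of the clock, had 41.4% in FLL (12 of 29) and 80% in SQL (28 of 35) in a coding exon. That bin was also called between SQL and the square library at high light (SQH), which had 38.5% (15 of 39). TOC1 (AT5G61380), the evening counterpart of CCA1, had 31.3% in FLL (21 of 67) and 57.1% in SQL (68 of 119). RVE4 (AT5G02840, LCL1 in the annotation), a relative of CCA1, had 48.5% in FLL (16 of 33) and 93.9% in SQL (46 of 49) in an untranslated exon, a difference of -45.4 points (-61.9 to -26.1). Of 26 photoprotection genes, with a median length of 2506 bp, 3 had a region (11.5%, beside the same 5.60%). CRD1 (AT3G56940), an enzyme of chlorophyll synthesis, had 18.2% in FLL and 40.7% in SQL, CSD2 (AT2G28190), the chloroplast copper/zinc superoxide dismutase, 0% in FLL (0 of 37) and 20.8% in SQL (10 of 48), and SAPX (AT4G08390), the stromal ascorbate peroxidase, 83.9% in FLL and 59.6% in SQL. Of 30 genes of light perception and signalling only DET1 (AT4G10180), a repressor of light-driven development, had a region (3.33%, beside 5.60%, at a median length of 3802 bp), with 83.1% in FLL and 58.0% in SQL in an ATREP10D stretch of an untranslated exon. The DET1 bin was also called between FLL and FLH, and FLH had 55.4%.

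The protein-coding genes with the most regions were AT5G39770 with 5, and AT1G23230, PAP5 (AT1G52940), AT2G16676, CLSY1 and GSL09 (AT5G36870) with 4 each. In 4 of these 6 genes the regions went both ways. In AT1G23230, a subunit of the Mediator complex that links regulators to RNA polymerase II, neighbouring bins of an intron had 21.2% in FLL and 0% in SQL (chr1:8251051-8251200) and 1.72% in FLL and 25.4% in SQL (chr1:8251201-8251350). In PAP5, a purple acid phosphatase gene, the regions lay in Helitron insertions in an intron, and the CpG level at chr1:19716751-19716900 was 25.5% in FLL and 61.2% in SQL. In GSL09, a callose synthase-like gene, all 4 regions were losses, the CpG region with 48.7% in FLL and 84.2% in SQL and the CpHpH regions of an ARNOLDY2 insertion with up to 16.3% in FLL and 30.4% in SQL. AT5G39770, which the annotation notes as a non-functional pseudogene, had CpG losses beside CpHpG and CpHpH gains.

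Along the chromosomes the contexts differed in place. Pericentromeric windows held 36.0% of the CpG DMRs (34.4 to 37.6), 55.1% of the CpHpG DMRs (52.5 to 57.7) and 20.2% of the CpHpH DMRs (18.9 to 21.5). With the stricter limit of 0.25 times the median gene number, which leaves 9.65% of the genome, they were 24.7% in CpG, 36.8% in CpHpG and 9.09% in CpHpH, and with a minimum difference of 15 points in CpHpH its share was 10.7%. Within 1 Mb of the centre of the pericentromere 757 CpG regions had a median of 64.6% in FLL and 87.2% in SQL, and 14.3% of them were gains. At 10 Mb and beyond, 473 CpG regions had 40.5% in FLL and 53.2% in SQL, and 31.5% were gains (27.5 to 35.8). CpHpG gains made up 87.4% of 430 regions within 1 Mb (84.0 to 90.2) and 65.2% of 46 at 10 Mb and beyond (50.8 to 77.3). CpHpH regions were most numerous between 2 and 4 Mb from the centre, with 1107 regions, and their share of gains there was 70.6%.

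**Figure D4:**
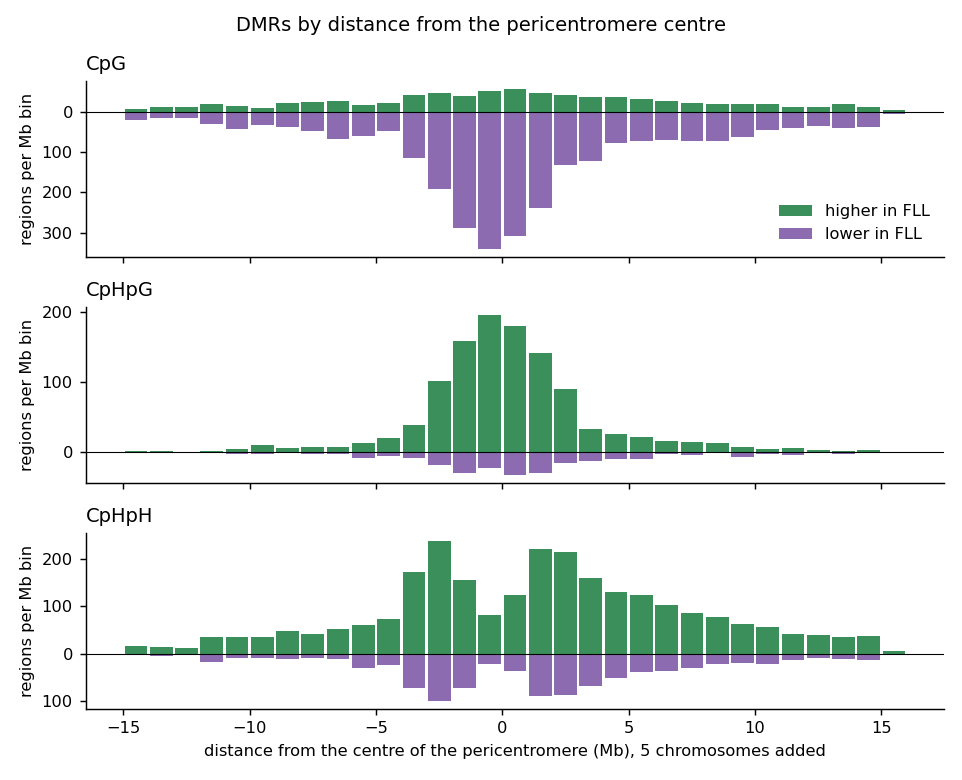
Number of DMRs per 1 Mb bin (vertical axis) by distance from the centre of the pericentromere (Mb, horizontal axis), all 5 chromosomes added, with regions higher in FLL above the line and regions lower in FLL below it. CpG losses and CpHpG gains pile up at the centre, whereas CpHpH regions peak on either side of it.

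The chromosomes held between 64.4 regions per Mb (chromosome 1) and 82.5 (chromosome 2). The share of CpG gains was lowest on chromosome 4 (18.6%) and highest on chromosome 1 (27.7%). In CpHpG it lay between 80.8% and 86.0%, and in CpHpH between 71.6% and 75.5%. Among 240 windows of 500 kb the median held 26.5 regions. The fullest window, chr5:12000001-12500000, held 96, among them 39 CpG losses, 26 CpHpG gains and 19 CpHpH gains, and no CpHpH loss. Next came chr2:6500001-7000000 with 94, and chr1:16500001-17000000 and chr2:3500001-4000000 with 92 each. The window on chromosome 1 held 43 CpHpH gains, 17 CpHpH losses and 14 CpG losses. A single region was mitochondrial, chrM:323855-324004, where CpG methylation was 20.8% in FLL (10 of 48) and 0% in SQL (0 of 55, 95% interval up to 6.53%). The build was checked for the nuclear chromosomes, where 8477 of 8478 regions had the TAIR10 number of cytosines.

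At high light, with a mean of 460 μmol photons m-2 s-1, the series has the regimes FLH (fluctuating) and SQH (square), also 1 library each, whose reads did not enter the calling of these regions. The comparison of FLH with SQH listed 583 of the 8479 regions with the same bin and context, 6.88%. The sign was the same in 287 of the 583 (49.2%). At the 31 CpHpG gains among them FLH was higher than SQH in 29, and at the 3 CpHpG losses in 2, beside 78.6% of all 1129 CpHpG regions that the comparison of FLH with SQH listed. The CpHpG gains had medians of 54.3% in FLH and 28.9% in SQH beside 56.2% in FLL and 30% in SQL. At the 44 CpG gains FLH was higher in 7 and lower in 37, beside 42.4% higher over all 2130 CpG regions of that comparison, with medians of 17.7% in FLH and 39.5% in SQH beside 55.2% in FLL and 22.3% in SQL. At the 83 CpG losses FLH was lower in 36 and higher in 47. In CpHpH FLH was higher at 145 of 306 gains and lower at 69 of 116 losses, beside 44.7% higher over all 3295 CpHpH regions. Both comparisons list only regions past their own thresholds, so levels elsewhere are not part of these counts.

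Of the named regions and the 3 bins called in all contexts, 113 in all, the comparison of FLH with SQH listed 14, and 9 of them had the same sign, beside the 49.2% over all shared regions. In CRD1 the CpG level was 18.2% in FLL and 40.7% in SQL, beside 16.4% in FLH (11 of 67) and 39.8% in SQH (35 of 88). In AT1G27880 it was 58.3% in FLL and 82.1% in SQL, beside 56.9% in FLH and 86.4% in SQH. In both genes the levels of the fluctuating libraries lay together, below those of the square libraries. The study had picked AT1G27880 for a DMR at both light intensities. It also counts CRD1 among its differentially methylated genes of square against fluctuating light, so neither gene was chosen independently of these calls. The CpHpH regions of AT2G01973, AT2G16676, AT2G16690 and AT1G27810 were higher and those of PAP5, AT1G31570 and AT4G02320 lower in the fluctuating library at both light levels. For AT2G01973 the levels were 38.1% in FLL and 12.5% in SQL, beside 27.4% in FLH and 12.3% in SQH, and for PAP5 2.17% in FLL and 15.5% in SQL, beside 2.31% in FLH and 12.8% in SQH. The other 5 of the 14 regions had opposite signs.

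**Figure D5:**
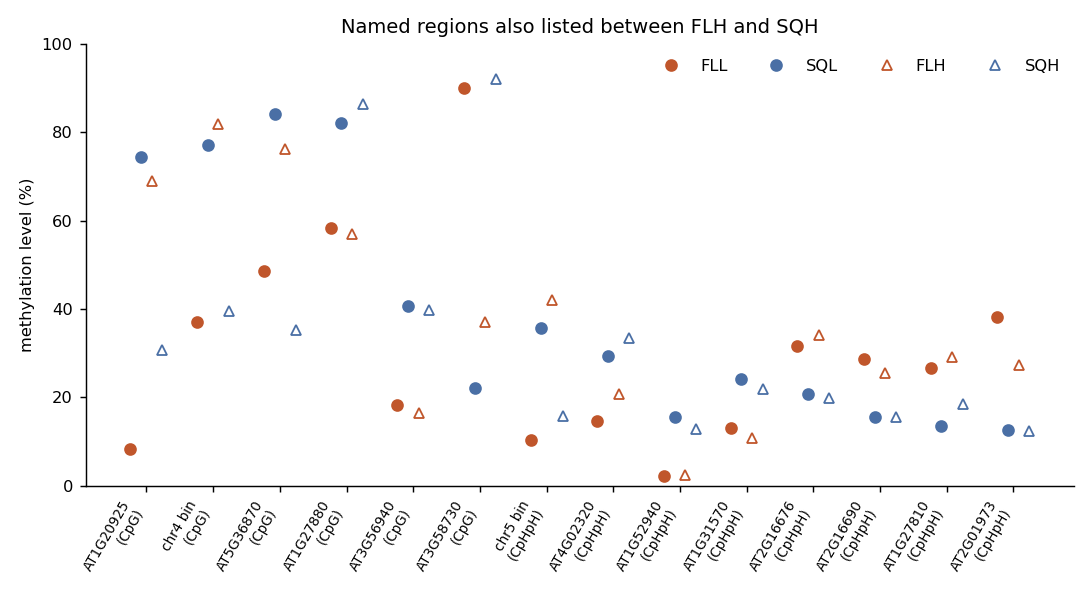
Methylation level (%, vertical axis) of the 14 named regions that were also called between FLH and SQH; for each region the points from left to right are FLL, SQL, FLH and SQH, 1 library each. In CRD1 (AT3G56940) FLL stands at 18.2% and SQL at 40.7%, and FLH at 16.4% and SQH at 39.8%, whereas in AT3G58730 FLL and SQH stand high and SQL and FLH low.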

How the data were processed

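The deposited tables list DMRs of 4 pairs of regimes. Per the labels and the study's methods, the authors trimmed reads with Trimmomatic 0.39, aligned them to TAIR10 with Bismark and Bowtie2, removed duplicates and used DMRcaller to call 150 bp bins holding 4 or more cytosines and 4 or more reads for each. The deposited counts are methylated and total read calls summed over a region's cytosines, not normalized. The authors' fraction (proportion) equals their ratio and was recomputed as a percentage. The deposited p-value served only as a filter in an alternative. The tables also hold the authors' columns of direction and region type, their own comparison, which were not used.

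Levels, differences (FLL minus SQL), Fisher's exact tests with Benjamini-Hochberg adjustment over all regions, and Wilson and Newcombe intervals were computed with SciPy 1.17.1, pandas 2.3.3 and numpy 2.4.6 in Python 3.11.15 (figures: matplotlib 3.10.9), after a test on simulated data. Gene, TE and family names are those the authors assigned, and 2959 of the 2978 loci matched the NCBI RefSeq annotation of TAIR10, from which the printed sequences come. TE groups follow family name prefixes.

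Genes and TEs named are those the study names beside methylation, list members with a region, the 3 largest differences per context and direction covered by 8 or more reads per cytosine in FLL and in SQL, the 5 genes (with ties) and 5 TEs with most regions, groups of at least 100 regions, the 10 largest families, the 3 fullest windows (with ties), and such regions also listed between FLH and SQH. Wide regions, shared bins and the mitochondrial region were added after their values were seen. Members and lists were chosen with earlier results of these data known. Alternatives changed coverage, p-value, minimum difference, depth balance, joining of regions, the pericentromere and the definition of a TE region.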

Additional observations from a re-analysis of the deposited data

Results flagged for a closer look

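At 6 of the named regions, 5 listed between FLH and SQH and 1 with its high light levels from other tables, the difference between the fluctuating and the square library had opposite signs at low and at high light. The difference between the 2 contrasts was not tested, and each library is 1 pool. In AT3G58730 (CpG, chr3:21718601-21718750) the level was 67.8 points higher in FLL than in SQL, whereas FLH minus SQH was -55.1 points (95% interval -68.6 to -35.8), with 37.0% in FLH and 92.1% in SQH. In AT1G20925 (CpG) the low light difference was -66.0 points and FLH minus SQH was 38.3 points (16.5 to 55.3), with 69.0% in FLH and 30.8% in SQH. In the CpG bin of GSL09 (AT5G36870) they were -35.5 and 41.0 points (18.2 to 58.5), with 76.3% in FLH and 35.3% in SQH. At the CpG bin upstream of AT4G09810 they were -40.1 and 42.2 points (25.6 to 56.3), with 81.8% in FLH and 39.6% in SQH. At the intergenic CpHpH bin chr5:20076305-20076454 they were -25.2 and 26.2 points (17.1 to 34.1), with 42.0% in FLH and 15.8% in SQH. In AT1G20760 (CpG, chr1:7214101-7214250), which was not called between FLH and SQH, they were 55.1 and -24.7 points (-41.7 to -4.83), with 20% in FLH (8 of 40, from the comparison with FLL) and 44.7% in SQH (21 of 47, from the comparison with SQL).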

How the results depend on the processing

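Under every alternative the share of gains stayed below 50% in CpG and above it in CpHpG and CpHpH. Where FLL and SQL both had 8 or more reads per cytosine, the share of gains was 25.6% in CpG and 76.8% in CpHpH, the share in TEs 34.5% and 71.7%, the pericentromeric share 25.8% and 14.4%, and the number of DMRs 2203, 525 and 1171 in CpG, CpHpG and CpHpH. With a minimum difference of 30 points (15 in CpHpH), the share of gains was 24% in CpG and 75.9% in CpHpH, the share in TEs 43.7% and 75.3%, the pericentromeric share 29.4%, 41.9% and 10.7% in the 3 contexts, and the number 815, 303 and 942. With a deposited p-value of at most 0.001, the share of gains in CpHpH was 75.3%, the pericentromeric share 50.1% in CpHpG and 22.4% in CpHpH, and the number 1540 in CpG and 435 in CpHpG. Regions with a TE family and no gene named were 23.3%, 29.8% and 58.6% of the 3 contexts. With windows under 0.25 times the median gene number (9.65% of the genome), the pericentromeric shares were 24.7%, 36.8% and 9.09%. Fewer regions passed the read test at an adjusted p under 0.001, 4521. The other 54 values stayed within their limits. For bins called in both CpHpG and CpHpH, at least 8 reads per cytosine, an alternative chosen after seeing the data, gave 30 of 30 (100%) in the same direction. No paired analysis was possible because each regime is 1 library. Depth limits single regions: at the median, the intervals of their differences were 27.4 points wide for CpG losses (9.67 reads per cytosine in FLL, 9.50 in SQL) and 12.5 for CpHpH gains (8.19 in FLL, 8.0 in SQL).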
